A study of Mus musculus with 40 samples.

Results

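Aldh1l1, the folate enzyme whose promoter is widely used to mark astrocytes, was followed here together with 9 enzymes of serine, glycine and folate-bound one-carbon metabolism, Aldh1l2, Phgdh, Psat1, Psph, Shmt1, Shmt2, Mthfd1, Gldc and Mat2a. The 10 genes were taken by symbol out of 26792 symbols in the deposited table of estimated counts, and each of the 10 was listed there. Earlier results of these data were known when they were chosen. The samples were hypothalami dissected from mice that all carried an Aldh1l1-eGFP-L10a transgene, in which Aldh1l1 regulatory sequence drives a fluorescent tag on the ribosomal protein L10a. Tagged ribosomes were pulled down with the messages bound to them (translating ribosome affinity purification, TRAP), and the supernatant that remained was sequenced beside the pull-down. The mice fell into 3 groups, all with 4 weeks of diet: sham-operated mice on chow (n = 7), sham-operated mice on a high-fat diet (HFD, n = 6) and orchiectomised mice, whose testes had been removed, on HFD (n = 7). Every group had a pull-down and a supernatant library for each sample, 40 libraries in all. Orchiectomy could be compared only among mice on HFD, as chow had sham mice alone in these libraries, and the age of the mice is not given in the labels. The labels give each sample a number but do not say that it stands for 1 mouse, so the spread behind each p-value may be partly technical. The tag is driven by the regulatory sequence of Aldh1l1, so the level of Aldh1l1 itself in the pull-down is tied to the gene that defines which cells carry the tag.

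Serine is made from the glycolytic intermediate phosphoglycerate by the enzymes encoded by Phgdh, Psat1 and Psph in turn, and serine hydroxymethyltransferase then splits it into glycine and a carbon unit carried on tetrahydrofolate. That carbon unit is passed between oxidation states by Mthfd1 in the cytosol, is used for nucleotides and for methionine, and can be burned to carbon dioxide by the formyl-tetrahydrofolate dehydrogenases Aldh1l1 (cytosolic) and Aldh1l2 (mitochondrial). In the brain, serine synthesis by way of Phgdh and the glycine cleavage system, of which Gldc is the decarboxylase, are known as features of astrocytes.

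Library totals ran from 7714830 to 20792200 estimated counts in the pull-downs and from 8739280 to 12931900 in the supernatants, and levels are given in CPM, counts scaled to the size of the library. All 10 of 10 astrocyte markers were higher in the pull-down (median log2 difference 4.55), their summed level lying between 36532 and 55592 CPM in pull-downs and between 1560 and 4526 CPM in supernatants. The 8 of 8 neuronal, 6 of 6 oligodendrocyte and 6 of 6 microglial markers were lower there (median log2 differences -3.78, -3.61 and -3.11), whereas 6 of 6 endothelial markers were higher (1.71). Other cell types were mixed. Of 4 oligodendrocyte precursor markers 1 was higher and 3 were lower (median -1.62). Of 6 mural and fibroblast markers 4 were higher and 2 lower (0.43), and of 6 tanycyte and ependymal markers 2 were higher and 3 lower (-0.56). Gm42418, a non-coding gene that overlaps ribosomal RNA sequence, took between 1.07% and 18.2% of the counts of a pull-down and over 10% in 4 of them, chow sample 8, HFD sample 1 and orchiectomised samples 11 and 22. Alb, a liver message, stood above 10 CPM in 8 pull-downs and in 0 supernatants. Mitochondrially encoded genes took between 0.643% and 1.63% of the counts of a pull-down and between 19.2% and 27.8% of those of a supernatant. The fractions thus differ in the kind of RNA they hold, and cell type and ribosome loading cannot be told apart in a difference between them. In such bulk libraries fewer cells of a type and less message per cell cannot be told apart either.

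Sequences upstream of the start of 4 genes are shown to give the regulatory letters of genes described below: Aldh1l1, the gene behind the tag, Phgdh, the entry to serine synthesis, and Asns and Slc7a11, targets of the amino acid response factor ATF4 that lay on opposite sides of the fractionation. Each is the 250 bases before the annotated start, written 5′ to 3′ on the gene's own strand, from RefSeq on GRCm38.p6. Capitals mark TGATGNAA, the core letters of the amino acid response element, and CCAAT, the box bound by NF-Y, on either strand (on the opposite strand CCAAT reads as ATTGG). The windows lie at chr6:90550543-90550792 (plus strand, Aldh1l1), chr3:98339970-98340219 (minus strand, Phgdh), chr6:7693210-7693459 (minus strand, Asns) and chr3:50443614-50443863 (minus strand, Slc7a11). The Aldh1l1 window precedes the RefSeq start but lies inside the gene as GENCODE places it (chr6:90486427-90600203), since the annotated starts differ.
Aldh1l1: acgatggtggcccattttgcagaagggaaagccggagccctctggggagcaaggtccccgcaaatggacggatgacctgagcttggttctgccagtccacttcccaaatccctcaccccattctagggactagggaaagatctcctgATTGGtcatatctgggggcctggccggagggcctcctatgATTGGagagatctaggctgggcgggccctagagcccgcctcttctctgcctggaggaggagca
Phgdh: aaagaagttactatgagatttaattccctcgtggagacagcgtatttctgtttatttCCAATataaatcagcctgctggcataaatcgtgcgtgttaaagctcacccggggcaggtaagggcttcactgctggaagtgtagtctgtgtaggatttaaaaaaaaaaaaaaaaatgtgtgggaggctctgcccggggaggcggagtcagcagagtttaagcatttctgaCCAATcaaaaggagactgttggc
Asns: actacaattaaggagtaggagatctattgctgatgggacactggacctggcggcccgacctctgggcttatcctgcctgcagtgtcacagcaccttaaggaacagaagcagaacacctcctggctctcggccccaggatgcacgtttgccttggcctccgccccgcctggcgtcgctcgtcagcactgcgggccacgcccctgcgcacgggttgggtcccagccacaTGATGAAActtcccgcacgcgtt
Slc7a11: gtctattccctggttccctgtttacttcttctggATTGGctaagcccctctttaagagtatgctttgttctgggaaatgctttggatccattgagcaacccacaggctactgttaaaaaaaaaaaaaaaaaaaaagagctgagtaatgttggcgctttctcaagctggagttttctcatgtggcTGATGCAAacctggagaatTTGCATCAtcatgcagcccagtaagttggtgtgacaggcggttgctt

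The Aldh1l1 and Phgdh windows each held 2 CCAAT boxes and 0 copies of TGATGNAA. Asns held 1 copy of TGATGNAA close to its start, and Slc7a11 held 2 with 1 CCAAT box. Of the 10 enzyme genes 9 had a promoter window, since Aldh1l2 had no entry, and TGATGNAA was in 0 of those 9, against 3.45% of 32851 windows of the same length. CCAAT was in 8 of the 9, all but Shmt2, against 33.8% of all windows, and the E-box CACGTG in 0 of the 9, against 6.02%. Among 14 genes of an ATF4 list, 7 held TGATGNAA (Aars, Asns, Chac1, Gars, Nupr1, Slc7a11 and Vldlr) and 8 held CCAAT. These matches describe the letters in the windows only; factor binding was not measured, and no motif was tested against the fraction values.

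The first comparison set the pull-down against the supernatant over all 20 samples and asked which of the enzyme messages differed between them. With edgeR's quasi-likelihood test and Benjamini-Hochberg adjustment over 15629 genes, at an adjusted p threshold of 0.05, 9 of the 10 genes were higher in the pull-down, 0 were lower and Aldh1l2 did not pass. Across all genes 86.8% were called between the fractions (87.1% at an unadjusted p under 0.05), 43.1% higher and 43.7% lower, so that a call alone says little here. At least 2-fold higher in the pull-down were 7 of the 10, against 22.8% of all genes. The median log2 difference of the 10 genes was 1.75, against -0.01 over all genes. For 6 of the 10 genes, Aldh1l1, Phgdh, Psat1, Psph, Mthfd1 and Gldc, the lowest pull-down lay above the highest supernatant, against 37.3% of all genes whose fractions did not overlap in either direction.

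**Figure D1:**
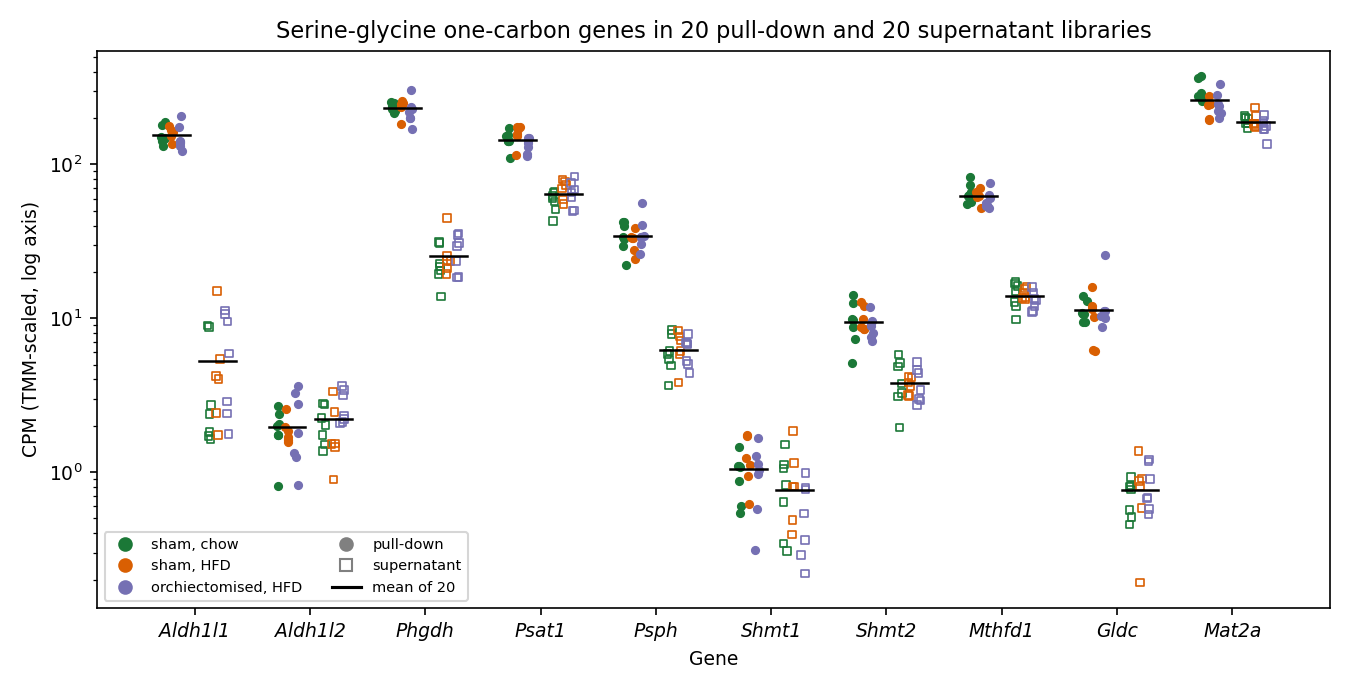
Level of each of the 10 enzyme genes in each of the 40 libraries, in CPM on a log axis, by fraction and treatment group, 1 point per library (filled, pull-down; open, supernatant) and a bar at the mean of the 20. Pull-downs of Aldh1l1 lie between 122 and 207 CPM and its supernatants between 1.64 and 15.0 CPM, whereas the fractions of Aldh1l2 and Shmt1 lie over each other.

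Aldh1l1 (chr6:90486427-90600203, plus strand, GRCm38 with GENCODE M21 models, as for all positions of genes below) converts formyl-tetrahydrofolate to tetrahydrofolate and carbon dioxide. Its pull-down values had a lowest of 122, a median of 149 and a highest of 207 CPM, and its supernatant values 1.64, 3.46 and 15.0 CPM. Every pull-down was above every supernatant, and the supernatants spread far more widely than the pull-downs. The means were 155 ± 22.1 and 5.27 ± 4.01 CPM (SD, n = 20 each), a 29.7-fold difference (log2 4.89 ± 0.24 SE, adjusted p = 5.81e-21, edgeR's quasi-likelihood test). Sample by sample, the log2 ratio of pull-down to supernatant ran from 3.30 to 6.17 and was above 0 in 20 of 20. Exons of Aldh1l1 overlap those of Gm45901 on the same strand and of Gm15756 on the other, so reads of these genes may have been shared between them.

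Aldh1l2 (chr10:83487450-83534140, minus strand), the mitochondrial counterpart, was low in both fractions. Pull-downs ran from 0.818 over a median of 1.83 to 3.61 CPM and supernatants from 0.895 over 2.17 to 3.62 CPM, that is, 8 to 52 and 10 to 41 counts. The ranges covered each other almost fully, and the pull-down was the higher library in 11 of 20 samples. The log2 difference was -0.13 ± 0.16 (adjusted p = 0.453, edgeR), which did not pass the test. The ratio of Aldh1l1 to Aldh1l2 stood at 6.34 ± 0.65 log2 units in pull-downs and 0.93 ± 1.29 in supernatants (SD, n = 20). This gap of 5.41 ± 1.33 had the same direction in 20 of 20 samples (range 2.52 to 8.10) and a p of 1e-05 in a two-sided permutation test that flips the sign of each sample's difference, the smallest value its 100000 draws can give. With the tag driven by Aldh1l1 regulatory sequence and Aldh1l2 at -0.13, the gap largely restates the Aldh1l1 difference between the fractions. This test, like that of Shmt1 and Shmt2 below, pairs libraries by sample number, by which their values paired only weakly.

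The 3 enzymes of serine synthesis all stood higher in the pull-down, by unequal amounts. Phgdh (chr3:98313170-98339990, minus strand), the dehydrogenase that commits phosphoglycerate to serine and whose promoter is printed above, ran from 169 over a median of 236 to 303 CPM in pull-downs and from 13.9 over 23.5 to 44.8 CPM in supernatants. The fractions did not overlap, and the difference was 9.09-fold (log2 3.18 ± 0.11, adjusted p = 6.18e-28, edgeR). Estimated counts of Phgdh were fractional in 22 libraries, as an estimator gives where reads match several sequences.

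Psat1 (chr19:15904678-15947337, minus strand), the aminotransferase of the middle step, had pull-down values from 111 over 145 to 174 CPM and supernatant values from 42.9 over 64.1 to 83.3 CPM. Its fractions were separate too, but by less, at 2.27-fold (log2 1.18 ± 0.07, adjusted p = 4e-19, edgeR). Psph (chr5:129765558-129787449, minus strand), the phosphatase that releases serine, ran from 22.3 over 33.8 to 55.8 CPM against 3.66 over 6.12 to 8.38 CPM. It was 5.49-fold higher in the pull-down with no overlap (log2 2.46 ± 0.11, adjusted p = 6.07e-24, edgeR). Both genes were higher in the pull-down in 20 of 20 samples.

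The serine hydroxymethyltransferases, which move a carbon from serine to tetrahydrofolate, differed less between the fractions. Shmt2 (chr10:127517123-127522444, minus strand), the mitochondrial form, ran from 5.09 over 9.12 to 14.1 CPM in pull-downs and from 1.95 over 3.70 to 5.82 CPM in supernatants. Its ranges touched at their ends, the pull-down was the higher library in 20 of 20 samples, and the difference was 2.50-fold (log2 1.32 ± 0.12, adjusted p = 9.29e-14, edgeR). Shmt1 (chr11:60788104-60811718, minus strand), the cytosolic form, had few counts, with 3 to 20 counts per pull-down and 2 to 17 per supernatant.

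Shmt1 levels ran from 0.311 over 1.08 to 1.75 CPM in pull-downs and from 0.219 over 0.782 to 1.85 CPM in supernatants, so the fractions covered each other. The log2 difference of 0.47 ± 0.22 passed narrowly (adjusted p = 0.0440, edgeR), with 13 of 20 samples higher in the pull-down. The call was lost with DESeq2 (0.40, adjusted p = 0.0813) and without the 4 Gm42418-rich samples (0.34, adjusted p = 0.172, edgeR). It was also lost in 10 of 20 refits that each left out 1 sample, where the adjusted p ranged from 0.0169 to 0.112. The log2 ratio of Shmt1 to Shmt2 was -3.19 ± 0.66 in pull-downs and -2.40 ± 0.78 in supernatants (SD, n = 20), a shift of -0.79 ± 1.02 (15 of 20 samples below 0, p = 0.00309, two-sided sign-flip permutation test with 100000 draws). Exons of Shmt2 overlap Ndufa4l2 and those of Shmt1 overlap Smcr8, each on the opposite strand, and the strand setting of the counting is not given in the sources used here. Those of Psph, Aldh1l2 and Mthfd1 likewise overlap Cct6a, D10Wsu102e and Gm47525 on the opposite strand.

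Mthfd1 (chr12:76255298-76319803, plus strand), the cytosolic enzyme that interconverts the carbon units on folate, ran from 51.7 over 62.4 to 82.2 CPM in pull-downs and from 9.85 over 13.6 to 17.2 CPM in supernatants. The fractions did not overlap, and the 4.51-fold difference held in 20 of 20 samples (log2 2.17 ± 0.07, adjusted p = 1.06e-28, edgeR). Gldc (chr19:30098447-30175429, minus strand), the glycine decarboxylase, ran from 6.16 over 10.7 to 25.7 CPM in pull-downs and from 0.192 over 0.786 to 1.38 CPM in supernatants, where it had only 2 to 14 counts. Its lowest pull-down stood above its highest supernatant, and the difference was 14.6-fold (log2 3.86 ± 0.16, adjusted p = 2.79e-24, edgeR).

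Mat2a (chr6:72432799-72439558, minus strand), which makes the methyl donor S-adenosylmethionine from methionine in most tissues outside the liver, was abundant in both fractions. Pull-downs ran from 193 over 253 to 375 CPM and supernatants from 136 over 185 to 234 CPM. The ranges overlapped, yet the pull-down was the higher library in 20 of 20 samples, with sample log2 ratios from 0.06 to 1.02. The fitted difference was 1.39-fold (log2 0.47 ± 0.06, adjusted p = 8.85e-09, edgeR), the smallest called difference of the set beside that of Shmt1.

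**Figure D2:**
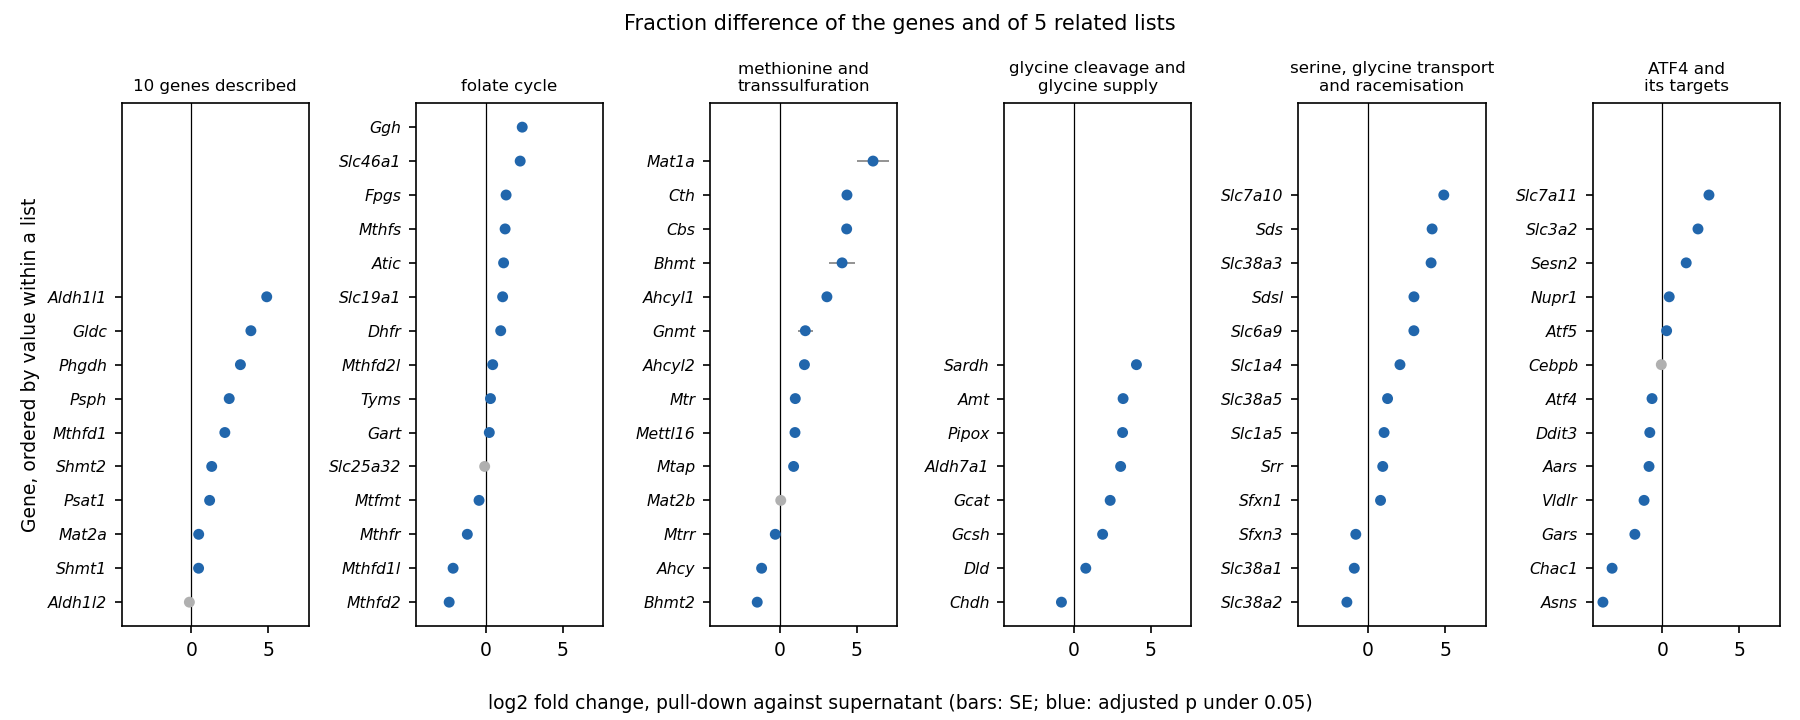
Log2 difference of pull-down against supernatant for the 10 enzyme genes (left panel) and for the tested genes of 5 related lists, with standard errors, from edgeR's fit of all 40 libraries; blue points passed at an adjusted p under 0.05. Aldh1l1 stands highest at 4.89, followed by Gldc at 3.86 and Phgdh at 3.18, and Aldh1l2 stands at -0.13.

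The other genes of these pathways were read from 5 lists of 69 genes, of which 63 were tested. Between the fractions 42 were higher in the pull-down and 18 lower, beside 43.1% and 43.7% of all genes. The same shares of all genes stand beside each list count below. In glycine cleavage and supply, 7 of 8 tested genes were higher and 1 lower (median log2 difference 2.69). Sardh, which removes a methyl group from sarcosine to give glycine, was 45.9 against 2.77 CPM on average (log2 4.06 ± 0.18), and Amt, the aminomethyltransferase that works beside Gldc, 83.0 against 9.06 CPM (3.19 ± 0.10). Pipox, a sarcosine and pipecolate oxidase, differed by 3.16 ± 0.22, and Aldh7a1, which oxidises betaine aldehyde among other substrates, by 3.03 ± 0.09 log2 units.

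Transport and turnover of serine and glycine had 10 of 13 tested genes higher and 3 lower (median 1.26). Slc7a10, a transporter of small neutral amino acids that include D-serine and glycine, was 165 against 5.55 CPM (log2 4.92 ± 0.27), and Slc38a3, a glutamine transporter, 119 against 6.93 CPM (4.09 ± 0.15). Sds and Sdsl, a serine dehydratase and its relative, were higher by 4.16 ± 0.32 and 2.98 ± 0.13 log2 units. Sds was at 0 in 8 supernatants and had at most 4 counts in any, against 5 to 35 counts per pull-down, so its fitted value is no firm fold. On the log2(signal + 1) scale of the second table it was 1.16.

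Methionine and transsulfuration genes were higher in 10 and lower in 3 of 14 (median 1.31). Cbs and Cth, the pair of enzymes that carry homocysteine and serine to cysteine, were 112 against 5.53 CPM (log2 4.35 ± 0.18) and 16.6 against 0.796 CPM (4.37 ± 0.16). Cbs is listed at 0 in every library of the second deposited table. Mat1a and Bhmt, enzymes known from liver, were also called (6.06 ± 1.02 and 4.05 ± 0.84), but Mat1a was at 0 in 16 supernatants and 5 pull-downs and Bhmt at 0 in 10 and 5, so these fitted values are no firm folds. Both were highest in the pull-down of orchiectomised sample 22, at 35.8 and 32.1 CPM, the library in which Alb stood at 138 CPM; the part of Alb-rich material in their levels was not tested.

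The folate cycle list was mixed, with 10 of 15 tested genes higher and 4 lower (median 0.46). Ggh, which trims the glutamate tail of folates, and Slc46a1, the proton-coupled folate transporter, were higher (log2 2.38 ± 0.07 and 2.25 ± 0.09). Mthfd2 and Mthfd1l, enzymes of the mitochondrial folate route, were lower, at 3.15 against 16.2 CPM (-2.36 ± 0.13) and 3.16 against 13.4 CPM (-2.11 ± 0.11). Cytosolic Mthfd1 and these mitochondrial partners thus lay on opposite sides of the fractionation, as each passed the test in its own direction.

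ATF4 is a stress-response factor known to drive the genes of serine synthesis. Of Atf4 and its other targets 5 of 13 tested genes were higher and 7 lower (median -0.67). Over all genes the shares were 43.1% and 43.7%, so these counts say little about the list. Asns, asparagine synthetase, was 3.75 against 53.0 CPM (log2 -3.85 ± 0.12) and Chac1, a glutathione-degrading enzyme, 0.685 against 6.43 CPM (-3.26 ± 0.19). Slc7a11, the cystine-glutamate exchanger, was instead 247 against 30.2 CPM (3.03 ± 0.09), and Slc3a2, its heavy chain, 518 against 103 CPM (2.32 ± 0.11). Atf4 itself stood at 69.8 against 111 CPM (-0.67 ± 0.08). All of these named differences passed edgeR's quasi-likelihood test with Benjamini-Hochberg adjustment. Asns and Slc7a11 both hold TGATGNAA in the windows printed above and Phgdh does not, and the motif was not tested against the fraction values.

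By the shape of the profile over all 40 libraries, the genes nearest to Aldh1l1 among 10896 with a mean of at least 5 CPM were Slc25a18 (a mitochondrial glutamate carrier), Plpp3 (a lipid phosphatase), Gja1 (a gap junction protein), Papss2 (a maker of the sulfate donor) and Agt (angiotensinogen). The measure was the root mean square difference of mean-centred log2 CPM, which was 0.270 for Slc25a18 and rose to 0.352 for Agt. Their fraction differences ran from 4.72 to 5.05 log2 units, on either side of that of Aldh1l1. By the same measure Cbs ranked 56, Sardh 100, Phgdh 326 and Gldc 330. The 40 libraries share the fraction contrast, which makes up most of each of these profiles.

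The spread of Aldh1l1 among supernatants followed the other astrocyte messages left in them. Over 20 supernatants, log2 Aldh1l1 and the log2 summed level of 10 astrocyte markers had Pearson r = 0.949 (permutation p = 1e-05, the smallest that 100000 draws can give, Benjamini-Hochberg adjusted 0.0001 over 30 relations) and Spearman rho = 0.935 (permutation p = 1e-05, adjusted 0.0003). Without the 2 samples farthest from the median r was 0.933, and within chow, HFD and orchiectomised samples it was 0.971, 0.916 and 0.955. In 6 supernatants the markers summed to over 3000 CPM, 2 of chow, 1 of HFD and 3 of orchiectomised samples, and Aldh1l1 lay between 8.79 and 15.0 CPM there, against 1.64 to 5.91 CPM in the other 14. Within those 14, r was 0.818 (permutation p = 0.00041, adjusted 0.0123), rho was 0.829 (permutation p = 0.00062, adjusted 0.0186), and r without the 2 farthest samples was 0.791. Within the 6, r was 0.614 (exact permutation p = 0.214) and rho 0.771 (exact permutation p = 0.103).

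Phgdh showed the relation more weakly, with r = 0.862 and rho = 0.823 over 20 supernatants (permutation p adjusted to 0.0001 and 0.0006) and r = 0.812 without the 2 farthest samples. Within chow, HFD and orchiectomised supernatants its r was 0.889, 0.978 and 0.751. Within the 14 supernatants of lower marker level it was 0.559, which did not pass after adjustment (adjusted p = 0.263, permutation test). Psph had r = 0.590 over the 20 (adjusted p = 0.0501, permutation test), just short of the threshold, and rho = 0.620 (adjusted p = 0.0328, permutation test), which passed. Its r was 0.540 without the 2 farthest samples, and 0.663, 0.465 and 0.705 within chow, HFD and orchiectomised supernatants. Within the 14 supernatants of lower marker level neither measure of Psph passed (r = 0.577, adjusted p = 0.263, and rho = 0.481, adjusted p = 0.481, permutation tests). Those 6 supernatants included all 4 samples whose pull-downs were rich in Gm42418.

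**Figure D3:**
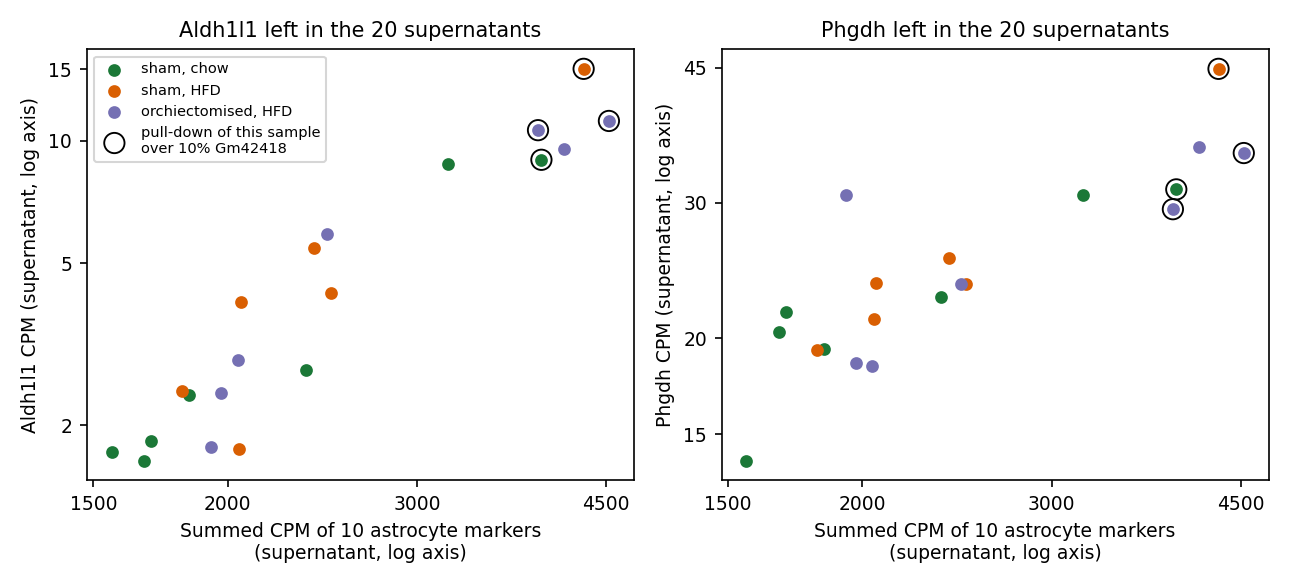
Level of Aldh1l1 and of Phgdh in each of the 20 supernatants against the summed level of 10 astrocyte markers in the same library, in CPM on log axes, coloured by treatment group, with rings around the samples whose pull-down held over 10% Gm42418. The 6 supernatants with over 3000 CPM of markers hold 8.79 to 15.0 CPM of Aldh1l1, and they come from all 3 groups.

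The treatment comparisons asked whether HFD in sham mice, orchiectomy on HFD, or both together against sham chow moved these messages, in the pull-down and in the supernatant, and whether the fractions differed in that response. None of the 10 genes was called in any of these 9 comparisons: edgeR, DESeq2 and limma voom each called 0. At an unadjusted p under 0.05 edgeR had 1 gene each for HFD, orchiectomy and both in the pull-down, 0, 1 and 0 in the supernatant, and 1, 0 and 0 for the differences between the fractions. Few genes of any kind were called. In the pull-down 0.0%, 0.0% and 0.0142% of 14059 genes passed (1.71%, 6.53% and 11.1% at an unadjusted p under 0.05), and in the supernatant 0.0% of 14628 passed in each (1.41%, 3.0% and 2.26% unadjusted). For the differences between the fractions 0.0%, 0.0064% and 0.0128% passed (2.55%, 4.43% and 6.66% unadjusted). Shmt1 and Gldc had too few counts for the supernatant fits, which tested 8 of the 10.

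No gene of the 10 had treatment groups that did not overlap, in either fraction, against 0.0356%, 0.171% and 0.206% of all genes in the pull-down and 0.041%, 0.0889% and 0.0205% in the supernatant. The comparisons share groups of samples, so their values are not independent. The median log2 difference of the 10 genes in the pull-down was -0.02 for HFD, -0.07 for orchiectomy and -0.06 for both, against -0.01, 0.01 and 0.00 over all genes. A missed test does not show that levels were equal, and the standard errors below give the size that could be seen.

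**Figure D4:**
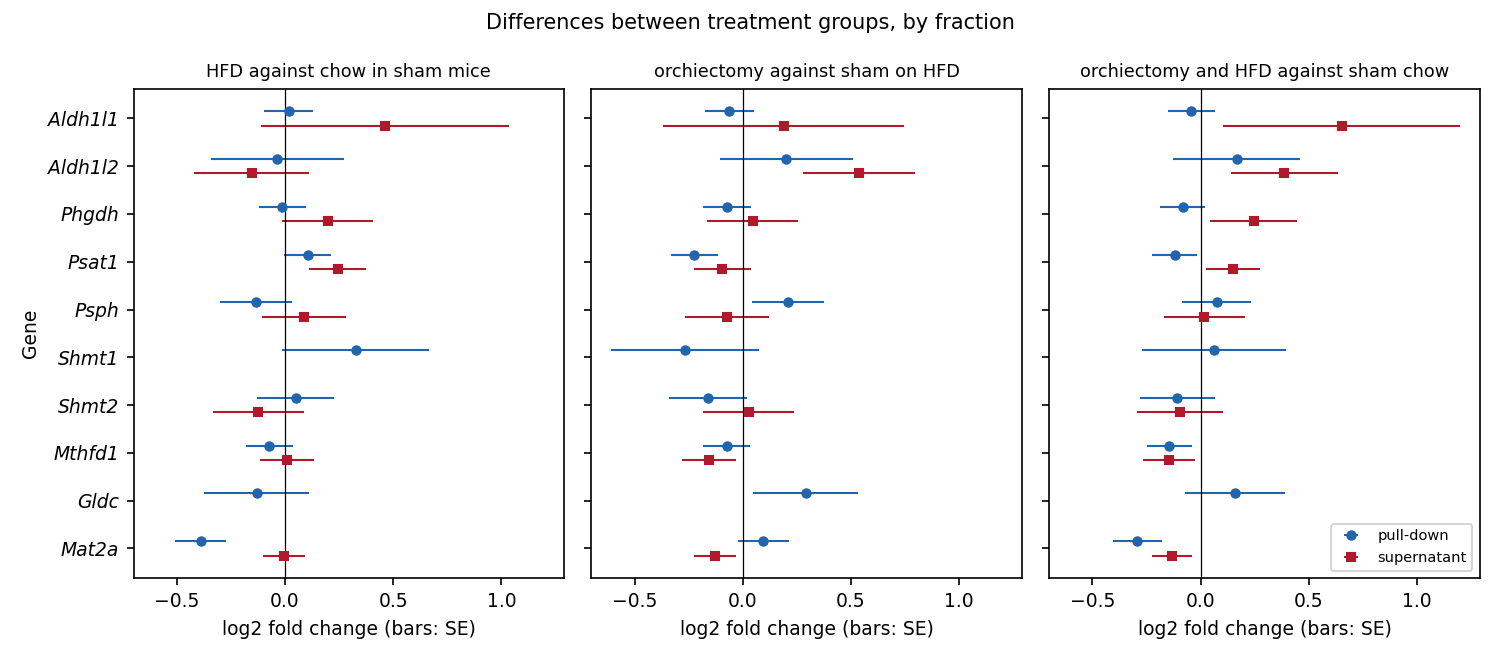
Log2 difference with standard error of each enzyme gene for the 3 treatment comparisons in the pull-down and in the supernatant, from edgeR. The groups' values centre near 0, Mat2a stands at -0.39 for HFD in the pull-down, and Aldh1l1 in the supernatant has the widest errors, from 0.55 to 0.57.

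Aldh1l1 in the pull-down stayed close between groups. Chow samples ran from 132 over 148 to 190 CPM, HFD samples from 136 over 161 to 177 CPM and orchiectomised samples from 122 over 140 to 207 CPM. All 3 groups covered each other, with log2 differences of 0.02 ± 0.11 for HFD, -0.06 ± 0.11 for orchiectomy and -0.04 ± 0.11 for both. In the supernatant the groups ran from 1.64 over 2.38 to 8.98, from 1.75 over 4.13 to 15.0 and from 1.77 over 5.91 to 11.2 CPM. The medians differed but the ranges lay over each other, and the log2 differences were 0.46 ± 0.57, 0.19 ± 0.56 and 0.65 ± 0.55, with unadjusted p = 0.249 for the last in edgeR. The summed astrocyte markers in the same supernatants had group means of 2323, 2518 and 2992 CPM; their part in the Aldh1l1 values was not tested. Leaving out HFD sample 1, whose supernatant held the highest value, turned the HFD difference to -0.17.

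Mat2a had the smallest p of the set for HFD. Its pull-down values ran from 258 over a median of 284 to 375 CPM in chow samples, from 193 over 245 to 279 CPM in HFD samples and from 199 over 239.8 to 331 CPM in orchiectomised samples. HFD samples were mostly below chow samples, with HFD sample 1 inside the chow range. Means were 304 ± 45.8 (SD, n = 7), 234 ± 33.2 (n = 6) and 248 ± 45.6 CPM (n = 7). The log2 difference for HFD was -0.39 ± 0.12 (unadjusted p = 0.00329, adjusted p = 1.00, edgeR), which did not pass. Orchiectomised against chow samples gave -0.29 ± 0.11 (adjusted p = 0.398, edgeR), using the same chow samples, and orchiectomised against sham on HFD 0.10 ± 0.12.

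In the supernatant Mat2a means were 193 ± 12.5, 193 ± 22.7 and 177 ± 23.0 CPM, with a log2 difference of 0.00 ± 0.10 for HFD. The difference between the fractions in the HFD response was -0.38 ± 0.16 (unadjusted p = 0.0202, adjusted p = 0.970, edgeR). The 4 Gm42418-rich samples held the highest Mat2a pull-down value of their group or the value next to it. Without them HFD samples (n = 5) ran from 193 to 248 CPM and chow samples (n = 6) from 258 to 375 CPM, with no overlap, as for 0.341% of all genes. The difference was then -0.39 ± 0.10 (unadjusted p = 0.000521) and still missed the threshold over all genes (adjusted p = 1.00, edgeR). Orchiectomised samples without them (n = 5) ran from 199 to 245 CPM, also apart from chow, as for 0.989% of all genes (-0.39 ± 0.10, adjusted p = 0.312, edgeR). The exons of Mat2a overlap Particl on the opposite strand.

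Psat1 had the smallest p for orchiectomy in the pull-down. Chow samples ran from 111 over 143 to 173 CPM, HFD samples from 115 over 164 to 174 CPM and orchiectomised samples from 113 over 137 to 149 CPM. Orchiectomised samples were mostly below HFD samples, with HFD sample 1 down among them. The log2 difference was -0.22 ± 0.11 (unadjusted p = 0.0492, adjusted p = 0.741, edgeR), which did not pass. The 4 Gm42418-rich pull-downs had the 4 lowest Psat1 values of all 20, from 111 to 116 CPM, the next being 129 CPM.

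Over 20 pull-downs log2 Psat1 fell with the log2 share of Gm42418 (r = -0.840, rho = -0.758, permutation p adjusted over 30 relations to 0.0001 and 0.0016, r = -0.778 without the 2 farthest samples). Within the 16 pull-downs of up to 10% Gm42418 the relation was r = -0.560 (permutation p = 0.0245, adjusted 0.263) and rho = -0.553 (permutation p = 0.0286, adjusted 0.319), and r was -0.397 without the 2 farthest. It therefore did not pass within them. With the 4 samples left out, orchiectomised samples (n = 5) ran from 129 to 149 CPM and HFD samples (n = 5) from 153 to 174 CPM without overlap, as for 2.06% of all genes. The difference was -0.22 ± 0.08 as before in size (unadjusted p = 0.00750, adjusted p = 0.496, edgeR). Among the 10 genes, Psat1 was the 1 whose pull-down level passed in relation to Gm42418.

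**Figure D5:**
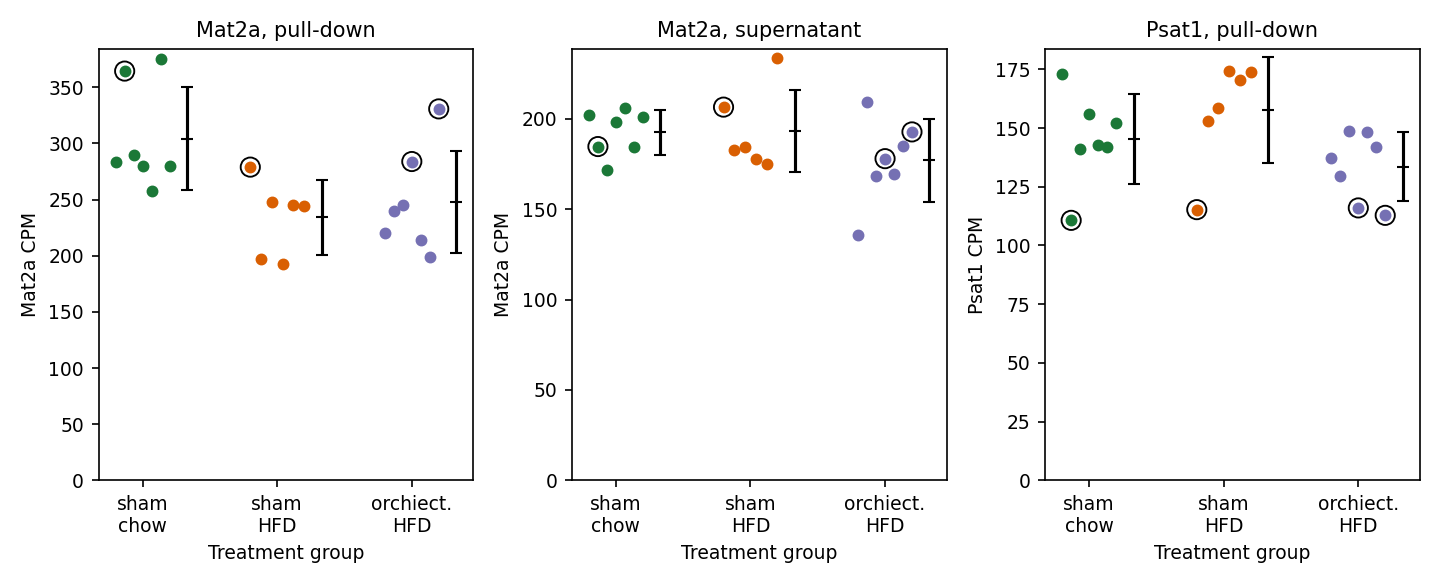
Mat2a in each pull-down and supernatant and Psat1 in each pull-down, in CPM, by treatment group, with rings around the 4 samples of over 10% Gm42418 in the pull-down and bars for the group mean and SD. The ringed samples are high within their group for Mat2a in the pull-down and are the 4 lowest for Psat1, and without them HFD pull-downs lie below chow pull-downs for Mat2a (193 to 248 against 258 to 375 CPM).

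Of the other genes, Aldh1l2 in the supernatant was 0.54 ± 0.26 log2 units higher after orchiectomy on HFD (unadjusted p = 0.0499, adjusted p = 0.945, edgeR), which did not pass. Its HFD supernatants ran from 0.895 over 1.53 to 3.34 CPM and its orchiectomised ones from 2.08 over 2.32 to 3.62 CPM, overlapping, on 10 to 33 and 19 to 41 counts. Phgdh in the pull-down differed by -0.01 ± 0.11, -0.07 ± 0.11 and -0.08 ± 0.10 for HFD, orchiectomy and both. Psph differed by -0.13 ± 0.17, 0.21 ± 0.17 and 0.07 ± 0.16. For Mthfd1 the values were -0.07 ± 0.11, -0.07 ± 0.11 and -0.15 ± 0.10. The low-count genes had wider errors, with Gldc at -0.13 ± 0.24, 0.29 ± 0.24 and 0.16 ± 0.23, Shmt1 at 0.33 ± 0.34, -0.27 ± 0.34 and 0.06 ± 0.33, and Shmt2 at 0.05 ± 0.18, -0.16 ± 0.18 and -0.11 ± 0.17.

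Orchiectomised sample 10 held the highest pull-down value of 4 of the 10 genes, Aldh1l1 (207 CPM), Phgdh (303 CPM), Psph (55.8 CPM) and Gldc (25.7 CPM), while 9.89% of all genes of at least 5 CPM were highest there. It was not among the Gm42418-rich samples but was among the 8 with over 10 CPM of Alb in the pull-down (19.8 CPM). Over all pull-downs, 0 of the 10 genes passed in relation to the summed level of liver markers, a list added after values were seen (permutation tests, adjusted). The part of Alb-rich material in the values of sample 10 itself was not tested.

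In the 5 pathway lists edgeR called 0 genes in any of the 9 treatment comparisons. At an unadjusted p under 0.05 it had 3, 6 and 14 of 62 genes in the pull-down for HFD, orchiectomy and both, where the shares over all genes were 1.71%, 6.53% and 11.1%. In the supernatant it had 0, 2 and 1 of 59 (1.41%, 3.0% and 2.26% of all genes), and for the differences between the fractions 2, 1 and 3 of 63 (2.55%, 4.43% and 6.66%). The list gene with the smallest p among ATF4 targets was Slc7a11, with pull-down means of 225, 228 and 285 CPM in chow, HFD and orchiectomised samples. It differed by 0.33 ± 0.11 log2 units for orchiectomy (adjusted p = 0.741, edgeR) and 0.34 ± 0.11 for both (adjusted p = 0.369, edgeR). Slc1a5, a neutral amino acid transporter, had means of 2.96, 1.78 and 1.26 CPM and differed by -1.21 ± 0.34 for both (adjusted p = 0.369, edgeR). Cbs differed by -0.28 ± 0.11 for orchiectomy (adjusted p = 0.741, edgeR). Endothelial markers had median log2 differences of 0.76 for orchiectomy and 1.06 for both in the same pull-downs, with 0 of 6 called and a summed level of 236 to 1433 CPM over all pull-downs, and their part in these values was not tested.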

How the data were processed

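Messenger RNA of mouse hypothalamus was measured in 20 pull-downs and 20 supernatants, and groups were taken from the labels. The authors deposited estimated counts per gene symbol, 12.7% of the non-zero values of which are not whole, and these were rounded to whole numbers. Trim Galore 0.6.4, Salmon 1.9.0 and GRCm38 are named in the submitters' processing notes, and libraries were made with a 3′ tag kit, per the labels' protocols. For the annotation, strandedness and gene-level summing, nothing is stated in the sources used here. The authors deposited a second table, named for TPM, whose values are treated as a signal: for 25089 of 26783 shared symbols it equals the count times 1 factor per library (within 0.01 counts), and its columns sum to between 847343 and 1025290. It was therefore analysed with limma on log2(signal + 1) and no reads were recovered from it.

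Counts were scaled by TMM, filtered with a minimum count of 10 and fitted with edgeR 4.0.16 (robust quasi-likelihood, R 4.3.3), with Benjamini-Hochberg adjustment over all genes tested. Pull-downs and supernatants were fitted apart for treatments (3 group means each) and together (6 group means) for the fraction and for the differences between fractions. Standard errors are the size of the log2 difference over the square root of F. CPM use TMM-scaled totals, ratios per sample a pseudocount of 0.5, and relations log2 CPM with 100000 permutations in scipy 1.17.1. At these totals a level of 1 CPM rests on about 10 counts, which limits Shmt1, Gldc and Aldh1l2. Alternatives were DESeq2 1.42.0, limma 3.58.1 with voom, other scalings, no filter, a replicate block, only the groups compared, the second table, and leaving out single samples, the 4 Gm42418-rich samples or, chosen after seeing the data, the 8 samples with over 10 CPM of Alb in the pull-down. The fits were tested on simulated data. The text names the 10 enzymes, up to 4 genes per list with the largest fraction difference, list genes of smallest p in treatments, and the 5 genes nearest to Aldh1l1; Atf4 was named after its values were seen. The 10 genes and the lists were chosen with earlier results of these data known.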

Additional observations from a re-analysis of the deposited data

Results flagged for a closer look

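Within each group of samples, the highest and the lowest value of each enzyme gene was compared with the rest by Dixon's criterion at its 95% critical value. Of 60 groups of values tested, 5 held a value that stood apart, and chance alone marks about 1 in 20 groups. HFD sample 1 gave 4 of the 5. Its supernatant held Aldh1l1 at 15.0 CPM, with the other HFD supernatants between 1.75 and 5.45 CPM. The same supernatant held Phgdh at 44.8 CPM, with the others between 19.3 and 25.4 CPM. Its pull-down held the lowest Phgdh of the HFD group, 184 CPM, the next being 235 CPM. That pull-down also held the lowest Psat1 of the group, 115 CPM, the next being 153 CPM. Gm42418 took 18.2% of the counts of this pull-down, the highest share of the 20. Over the 20 pull-downs the relation to the Gm42418 share passed for Psat1 (r = -0.840, adjusted p = 0.0001, permutation test). For Phgdh it did not (r = -0.486, adjusted p = 0.122, permutation test). The supernatant of this sample held 4288 CPM of astrocyte markers, a level that Aldh1l1 and Phgdh followed over the 20 supernatants. The part of either measure in the flagged values of this sample was not tested. The remaining value was Gldc in the pull-down of orchiectomised sample 10, 25.7 CPM, with the others of its group between 8.72 and 11.1 CPM.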

How the results depend on the processing

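Of 674 values recomputed under alternatives other than leaving out 1 sample, 660 kept their direction and their side of the threshold, as did 1504 of 1520 that left out 1 sample. Between the fractions 8 to 9 of the 10 enzymes were called in every alternative and every refit without 1 sample, and 0 were called in every treatment comparison. The call of Shmt1 was lost with DESeq2's size factors (0.40, adjusted p = 0.0881), library totals (0.39, 0.108), the second table (0.18, 0.0777) and without the Alb-rich samples (0.21, 0.497), besides DESeq2 and the Gm42418-rich samples, and without 1 sample its log2 difference ran from 0.38 to 0.57; the cause was not tested. With the second table the median of the 10 was 1.54 and Cbs was 0, where that table lists it at 0. The count of higher ATF4 genes was 3 with that table and without the Alb-rich samples, and the count of lower glycine genes 2 with no filter. Small differences of Aldh1l1 changed sign: without the Alb-rich samples they were -0.011 for HFD in the pull-down, -0.18 for orchiectomy in the supernatant and 0.017 for its difference between fractions. Leaving out 1 sample, Aldh1l1 ran from -0.014 to 0.069 for HFD in the pull-down (chow 7, HFD 13), from -0.13 to 0.013 for both (orchiectomised 2, chow 8), from -0.17 to 0.79 for HFD in the supernatant and from -0.82 to 0.19 for its difference between fractions (HFD 1 for the last pair). Over all genes, DESeq2 called 11 for orchiectomy and 12 for both in the pull-down where edgeR called 0 and 2, 3 and 1 in the supernatant where edgeR called 0 in each, and 4, 6 and 7 against 0, 1 and 2 for the differences between fractions; without the Gm42418-rich samples edgeR called 4 for orchiectomy in the pull-down, and 0 to 3 genes were called in each other treatment comparison under the alternatives that did not use DESeq2 or leave out 1 sample. With sample number as a replicate block, 14242 of 16719 genes tested were called between the fractions, against 13561 of 15629 without it (the low-count filter keeps more genes under that design), and no call of an enzyme changed. By their values the numbers paired the libraries only weakly. Deviations of the pull-down and supernatant of 1 number correlated between -0.15 and 0.22 over 10896 genes (6 of 20 over 0.1, own number best in 4 of 20). Their median was 0.033, against 0.003 for other numbers of the same group. All 4 samples with Gm42418-rich pull-downs were among the 6 whose supernatants held over 3000 CPM of astrocyte markers. The main fits did not use the numbers as pairs, and the sign-flip tests rest on the shared number. Depth limits Shmt1, Gldc in supernatants and Aldh1l2, at 2 to 52 counts per library.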
